A study of Mus musculus with 24 samples.

Results

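The genes Sned1, Edil3, Mfge8, Npnt, Ndnf, Egfl6 and Egfl7 encode secreted integrin-binding and related proteins. They are described here in sorted cells of the mouse embryonic brain that are labelled as pericytes or endothelial cells. These 7 genes were listed by name out of 25471 genes in 3 deposited tables of mutant against control, and all 7 had a tested value in every table. They were chosen by gene name with the mutant and control means of all 3 comparisons in view. Their means, ratios and adjusted p-values are therefore a description, and no test of them is given as support. The mutants were Pdgfrb-Cre, Alk5(flox/flox), Zs/+ embryos, labelled as having GMH-IVH, and the controls were Pdgfrb-Cre, Alk5(flox/+), Zs/+ embryos, labelled normal. Both genotypes thus carried a ZsGreen reporter, at least 1 floxed Alk5 allele and a Cre recombinase driven by Pdgfrb, a gene of mural and other mesenchymal cells. The stated aim was to find how ALK5 shapes gene expression in brain pericytes. Alk5 is an older name for Tgfbr1, the type I receptor of TGF-beta. Libraries came from E11.5 pericytes (4 mutant, 4 control), E13.5 pericytes (4 mutant, 4 control) and E13.5 endothelial cells (3 mutant, 5 control).

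Integrins are paired cell-surface receptors that hold cells to the extracellular matrix, and many of their ligands are recognised through the tripeptide arginine-glycine-aspartate (RGD). Edil3 and Mfge8 encode related proteins that join an RGD-bearing EGF repeat to discoidin domains, which bind phosphatidylserine on dying cells. Npnt encodes nephronectin, a basement membrane ligand of integrin alpha-8 beta-1, and Egfl6 a related EGF-repeat matrix protein. Sned1 encodes a matrix glycoprotein with a nidogen-like domain, EGF repeats and fibronectin type III domains. Ndnf encodes a secreted fibronectin type III protein described in neurons and in endothelial cell survival, and Egfl7 a protein made mainly by endothelial cells.

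In each comparison a single gene of the 7 stood apart, and it was a different gene each time. Ndnf was 2.41-fold higher in mutant pericytes at E11.5, Sned1 was 2.13-fold higher in mutant pericytes at E13.5, and Edil3 was 3.39-fold lower in mutant endothelial cells at E13.5, by the authors' deposited tables. The other 4 genes, Mfge8, Npnt, Egfl6 and Egfl7, did not pass an adjusted p of 0.05 in any of the 3 tables. Values are the authors' group means of normalized counts, 1 per group, on a scale set separately in each table. Adjusted p-values are also the authors', and DESeq2 is among the tools that the submitters' notes name. Values per library were not analysed here, so each ratio is given with a standard error (SE) and 95% interval worked out from the authors' ratio and p-value, taking the test as a Wald test. Whether a ratio differed between stages or between cell types was not tested. In the E13.5 pericyte comparison sex and genotype cannot be told apart, as the Xist means below show.

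The labels were checked against markers, on scales that differ between tables. Pdgfrb had means of 4474 in mutant and 4200 in control E11.5 pericytes, of 7973 in mutant and 7160 in control E13.5 pericytes, and of 181 in mutant and 207 in control endothelial cells, by the authors' deposited tables. The endothelial cadherin gene Cdh5 had means of 172 in mutant and 252 in control E11.5 pericytes, of 1013 in mutant and 876 in control E13.5 pericytes, and of 15906 in mutant and 19917 in control endothelial cells, by the authors' deposited tables. Not every marker followed the labels: the endothelial factor gene Erg averaged 1203 in mutant and 1868 in control E13.5 pericytes, and 741 in both mutant and control endothelial cells, by the authors' deposited tables. In E13.5 pericytes the 16 listed fibroblast and meningeal markers summed to 323068 in mutants and 306344 in controls, by the authors' deposited table. Large members were Col1a1 (126389 in mutants, 118865 in controls), Col1a2 (81240 in mutants, 81854 in controls) and Col3a1 (66054 in mutants, 58968 in controls). The 19 pericyte markers summed to 30777 in mutants and 29685 in controls, by the authors' deposited table. These sums are not per kb, so they do not compare the amounts of the cell types. Tgfbr1, the targeted gene, was not lower in mutant pericytes over its whole length. Its means were 6196 in mutant and 4609 in control E11.5 pericytes (ratio 1.34, adjusted p = 0.399), and 5823 in mutant and 5700 in control E13.5 pericytes (ratio 1.02, adjusted p = 1.00), by the authors' deposited tables. In endothelial cells Tgfbr1 averaged 2849 in mutants against 3066 in controls (adjusted p = 0.859), by the authors' deposited table. Reads over the floxed exons were not analysed here, so whole-gene means do not check the genotype labels. In bulk RNA, fewer cells of a type and less RNA per cell cannot be told apart.

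Levels were compared between genes only per kb of exon and within a table. Among E11.5 control pericytes Mfge8 had the highest level of the 7, 401 per kb, at the 84.6th percentile of tested genes. Egfl6 followed at 244 per kb, then Sned1 at 141, Npnt at 103, Edil3 at 95.5, Egfl7 at 63.1 and Ndnf at 44.7. Among E13.5 control pericytes Egfl6 led with 1178 per kb and Sned1 followed with 620, at the 93.8th and 87.6th percentile. Npnt had 433 and Mfge8 343 per kb in those cells, and Edil3, Ndnf and Egfl7 came last at 128, 96.0 and 23.6. In E13.5 control endothelial cells Egfl7 led with 2733 per kb at the 96.8th percentile, and Mfge8 came next with 1483 at the 93.6th. Npnt, Edil3 and Egfl6 had 141, 54.9 and 32.8 per kb there, Ndnf had 16.6, and Sned1 came last at the 11.7th percentile. Sned1 and Egfl6 thus lay high in the E13.5 pericyte table and low in endothelial cells, while Egfl7 lay low in those pericytes and high in endothelial cells. The spread of a single group mean is unknown, so it could not be said which neighbours in these orders differ.

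**Figure D1:**
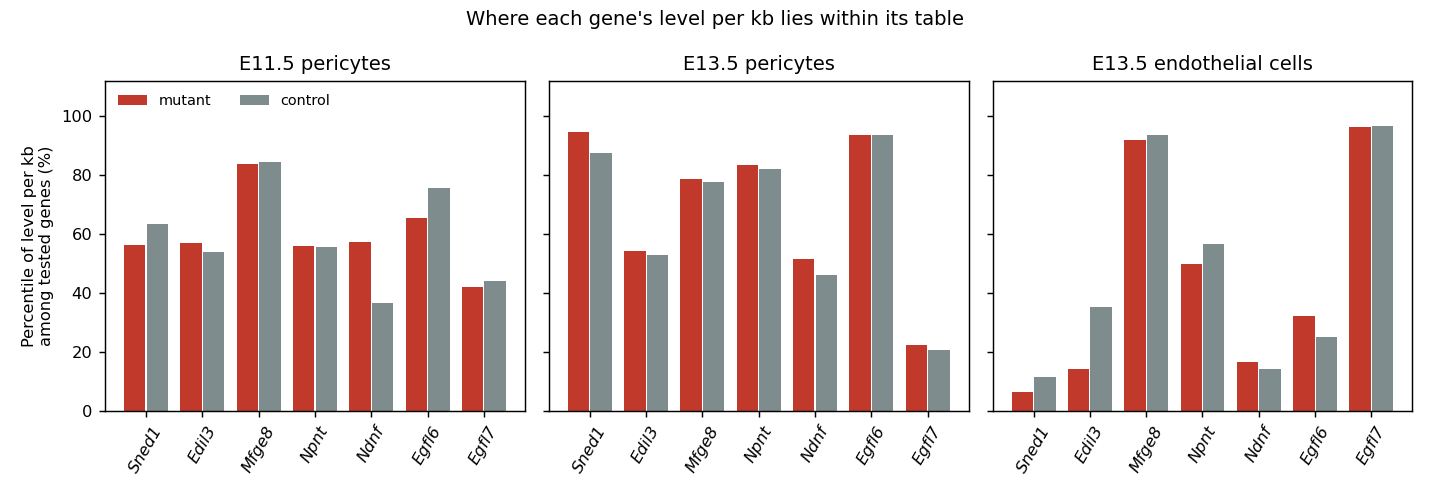
Percentile of each gene's level per kb among the tested genes of its table (%), as bars for mutants (red) and controls (grey), with 1 panel per table. Sned1 lay near the top in E13.5 pericytes (mutants 94.7, controls 87.6) and near the bottom in endothelial cells (mutants 6.5, controls 11.7).

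Sned1 had the smallest p of all genes tested in E13.5 pericytes. Its mean was 12528 in mutant and 5887 in control pericytes, a ratio of 2.13 (95% interval 1.85 to 2.45) and a log2 ratio of 1.09 (SE 0.10), with an adjusted p of 4.84e-21, per the authors' deposited table. It was the 1 gene of the 7 that passed there, where 0.388% of the 20084 tested genes passed, and nothing is read from that count because these values chose the genes. At E11.5 the Sned1 mean was 966 in mutant and 1334 in control pericytes, with a log2 ratio of -0.47 and SE of 0.29 (adjusted p = 0.391), per the authors' deposited table. In endothelial cells it was 73.8 in mutants against 128 in controls, with a log2 ratio of -0.79 and SE of 0.33 (adjusted p = 0.137), per the authors' deposited table. The ratio was above 1 in E13.5 pericytes and below 1 in the other comparisons, which both missed the threshold. Xist, the RNA of the inactive X, averaged 5.73 in mutant and 36145 in control E13.5 pericytes, per the authors' deposited table. The Sned1 ratio there is thus one between groups in which sex and genotype cannot be told apart.

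The promoter of Sned1, the gene with the smallest p in E13.5 pericytes, is shown from RefSeq (GRCm38.p6, plus strand, chr1:93235647-93235946), with the 250 bases before the annotated start in lower case and the 50 bases after it in capitals.
Sned1: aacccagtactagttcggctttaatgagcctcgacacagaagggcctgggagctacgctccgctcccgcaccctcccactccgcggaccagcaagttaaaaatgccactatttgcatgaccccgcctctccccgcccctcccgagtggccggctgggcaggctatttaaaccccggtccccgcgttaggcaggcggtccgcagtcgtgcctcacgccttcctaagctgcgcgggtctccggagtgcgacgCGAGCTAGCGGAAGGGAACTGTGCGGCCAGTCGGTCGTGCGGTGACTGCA
The motif CAGAC, which SMAD proteins are known to bind, was searched on both strands, as CAGAC and GTCTG, and the matches of these words share no bases in these promoters. It was not found in these 300 bases, whereas 49.6% of 32851 RefSeq promoters of the same length hold at least 1 match. Promoters of 5 of the 7 genes, 8 promoters in all, were matched by symbol, and 1 of the 8, at an Egfl7 start, held the motif. The absence of these letters from the window says nothing of SMAD binding to the gene.

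Sned1 lies on the plus strand of chromosome 1, and its GENCODE gene model runs over positions 93235841 to 93301065 (mm10). Of its exon bases, 1855 (19.5%) are shared with Mterf4, a mitochondrial transcription termination factor gene on the opposite strand, and the small RNA gene Mir6901 also lies within its exons. Mterf4 had means of 1104 in mutant and 861 in control E13.5 pericytes, a ratio of 1.28 with an adjusted p of 0.0112, per the authors' deposited table. Whether the counting used strand is not given in the sources used here. If it did not, reads over the shared exons cannot be told apart between these genes. The mutant mean exceeded the control mean by 6641 for Sned1 and by 242 for Mterf4, taken from the authors' deposited table. The part of the shared exons in the Sned1 ratio was not tested.

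Ndnf stood apart among the 7 genes at E11.5. Its mean was 1090 in mutant and 452 in control pericytes, a ratio of 2.41 (95% interval 1.88 to 3.09) and a log2 ratio of 1.27 (SE 0.18), with an adjusted p of 2.32e-08, per the authors' deposited table. Its p ranked 3 from the smallest. It was the 1 gene of the 7 that passed, where 3.35% of the 19301 tested genes passed. As for Sned1, nothing is read from that count because these values chose the genes. At E13.5 Ndnf averaged 1213 in mutant and 971 in control pericytes, a ratio of 1.25 (95% interval 1.06 to 1.47) with an adjusted p of 0.562, per the authors' deposited table. In endothelial cells its means were 192 in mutants against 168 in controls, a log2 ratio of 0.19 and SE of 0.22 (adjusted p = 0.695), per the authors' deposited table. Ndnf was the gene of the 7 with a ratio above 1 in all 3 tables. It lies at positions 65671590 to 65712326 of chromosome 6 (mm10, plus strand) with no exon shared with another gene model.

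Cell type markers also differed at E11.5, where 0.642% of all tested genes were called higher and 2.70% lower in mutants. Of 19 pericyte markers 6 were called lower and 1 higher in mutants, with a median log2 ratio of -0.33 and summed means of 14626 in mutants against 17341 in controls, by the authors' deposited table. Of 15 fibroblast and meningeal markers 5 were called lower and 1 higher, with a median of -0.78 and summed means of 76281 in mutants against 105065 in controls, by the authors' deposited table. Of 19 myeloid markers 5 were called lower, with a median of -0.95 and summed means of 1639 in mutants against 3210 in controls, and of 14 endothelial markers 1 was, with a median of -0.92, by the authors' deposited table. The part of these cells in the Ndnf ratio was not tested. Of 13 tested markers of neural progenitors and neurons, a lineage that expresses Ndnf, 0 were called, with a median of 0.04, by the authors' deposited table. All 14 listed there, tested or not, had summed means of 7415 in mutants against 7450 in controls, by the authors' deposited table.

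Edil3 stood apart among the 7 genes in endothelial cells. The Edil3 mean was 222 in mutant and 751 in control endothelial cells, a ratio of 0.295 (95% interval 0.174 to 0.502) and a log2 ratio of -1.76 (SE 0.39), with an adjusted p of 0.000472, per the authors' deposited table. Its p ranked 254 in that table. Edil3 was the 1 gene of the 7 that passed, where 7.30% of the 18132 tested genes passed. As for Sned1, nothing is read from that count because these values chose the genes. In pericytes its log2 ratios were 0.13 (SE 0.20) at E11.5 and 0.06 (SE 0.12) at E13.5, with adjusted p of 0.769 and 1.00, per the authors' deposited tables. The pericyte means were 1433 in mutants against 1307 in controls at E11.5 and 1818 in mutants against 1744 in controls at E13.5, per the authors' deposited tables. The E13.5 pericyte ratio had a 95% interval of 0.881 to 1.23. Edil3 lies on the plus strand of chromosome 13 from 88821472 to 89323223 (mm10), also with no shared exon.

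The call of Edil3 was lost, with an adjusted p of 0.164, when the test statistics of all genes were rescaled so that their median size matched a standard normal. That rescaling cut the share of all tested genes called in endothelial cells from 7.30% to 0.270%, so the loss is not particular to Edil3. Red cell RNA differed between these endothelial sorts, where 5.11% of all tested genes were called higher and 2.19% lower in mutants. All 10 erythroid markers were called higher in mutants with a median log2 ratio of 3.94, and they made up 7.47% of the summed means in mutants and 0.304% in controls, by the authors' deposited table. Scaling to the summed means, which include these erythroid markers, lowers every endothelial log2 ratio by 0.13. It puts Edil3 at -1.89 and brings Sned1 to -0.92, just past the threshold with an adjusted p of 0.04997. Before this scaling the adjusted p of Sned1 was 0.137. Of 20 endothelial markers 1 was called lower, with a median of -0.24 and summed means of 179192 in mutants against 212012 in controls, by the authors' deposited table. Among 14 tested pericyte markers in endothelial cells 0 were called, with a median of -0.06, by the authors' deposited table. All 17 listed there, tested or not, had summed means of 11963 in mutants against 11471 in controls, by the authors' deposited table. Most of that sum is Gja4, also an arterial endothelial gene, at 8589 in mutants against 7356 in controls, by the authors' deposited table. Of these 14 uncalled markers, 6 had ratios above 1 and 8 below 1. Lower mutant means included Cspg4 at 37.6 in mutants against 238 in controls, Ndufa4l2 at 16.4 in mutants against 64.5 in controls and Rgs5 at 274 in mutants against 486 in controls, by the authors' deposited table. Higher mutant means included Anpep at 83.9 in mutants against 57.7 in controls and Notch3 at 70.5 in mutants against 57.3 in controls, by the authors' deposited table. Among 14 neural markers 0 were called, with a median of 0.42, and among 20 myeloid markers 4 were called higher, with a median of 0.90, by the authors' deposited table. The part of these cells in the Edil3 ratio was not tested.

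**Figure D2:**
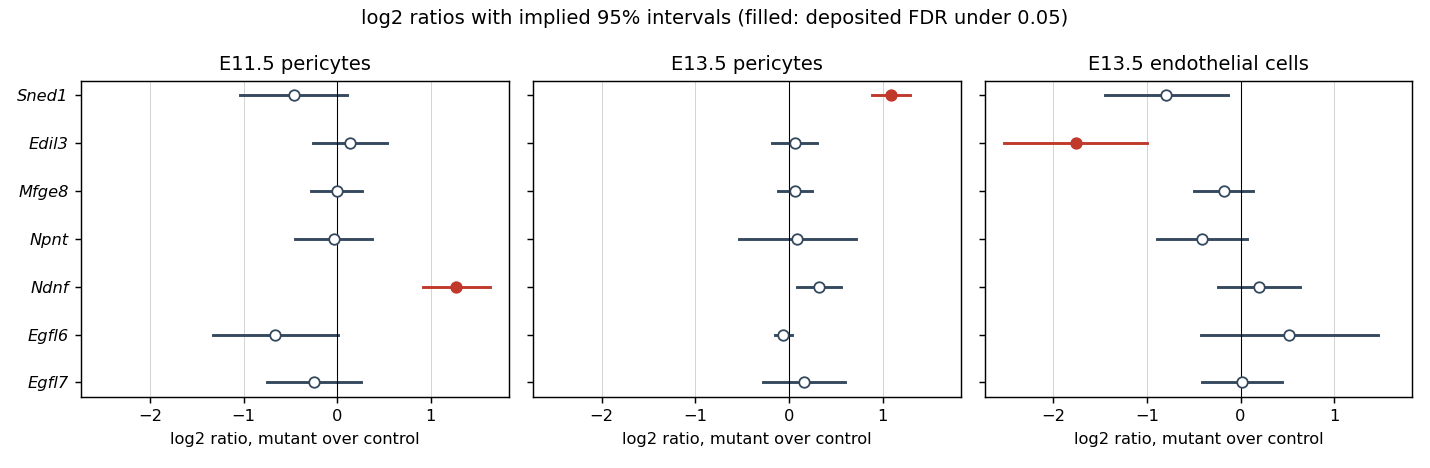
log2 ratio of mutant to control for each of the 7 genes (points) with the implied 95% interval (bars), with 1 panel per deposited table and filled red points for an adjusted p under 0.05. Filled points mark Ndnf at E11.5 (1.27), Sned1 in E13.5 pericytes (1.09) and Edil3 in endothelial cells (-1.76).

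Mfge8, the relative of Edil3 with the same domain plan, had ratios close to 1 in pericytes. Its means were 1873 in mutants against 1882 in controls at E11.5, and 1689 in mutants against 1611 in controls at E13.5, per the authors' deposited tables. The ratios had 95% intervals of 0.823 to 1.20 and of 0.925 to 1.19. In endothelial cells Mfge8 averaged 6145 in mutants against 6963 in controls, a ratio of 0.882 (95% interval 0.709 to 1.10) with an adjusted p of 0.585, per the authors' deposited table. Whether Mfge8 and Edil3 differed in endothelial cells was not tested. Mfge8 is on chromosome 7, minus strand, from 79133768 to 79149060 (mm10).

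Npnt, the integrin alpha-8 beta-1 ligand, had means of 503 in mutant and 517 in control pericytes at E11.5, with an interval of the ratio from 0.734 to 1.29, per the authors' deposited table. At E13.5 it averaged 2317 in mutant and 2176 in control pericytes with the widest interval of the 7 there, 0.692 to 1.64, per the authors' deposited table. In endothelial cells the means were 531 in mutants against 707 in controls, a ratio of 0.751 (95% interval 0.539 to 1.05) with an adjusted p of 0.345, per the authors' deposited table. None of these Npnt ratios passed, and the intervals leave room for changes in either direction. Npnt is on chromosome 3, minus strand, from 132881745 to 132950291 (mm10).

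Egfl6 averaged 417 in mutant and 660 in control pericytes at E11.5, a ratio of 0.633 (95% interval 0.398 to 1.00) with an adjusted p of 0.287, per the authors' deposited table. At E13.5 it had the narrowest interval of the 7, with means of 3060 in mutant and 3186 in control pericytes and a ratio of 0.960 (95% interval 0.901 to 1.02), per the authors' deposited table. In endothelial cells its means were 127 in mutants against 88.7 in controls, with a log2 ratio of 0.52 and SE of 0.48 (adjusted p = 0.602), per the authors' deposited table. Egfl6 lies on the X chromosome, minus strand, from 166523007 to 166585720 (mm10). Xist, the RNA of the inactive X, is named here because of its values, and had means of 5.73 in mutant and 36145 in control E13.5 pericytes, per the authors' deposited table. Sex and genotype therefore cannot be told apart in the E13.5 pericyte comparison, Sned1 included. Xist had no value in the other comparisons, so sex was not checked there.

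Egfl7 lay near the top of the endothelial table, in the middle of the E11.5 pericyte table (percentile 42.2 in mutants, 44.2 in controls) and low in the E13.5 pericyte table (22.3 in mutants, 20.8 in controls). Its means were 9892 in mutant and 9788 in control endothelial cells, a ratio of 1.01 (95% interval 0.749 to 1.36) that turns below 1 when scaled to the summed means (log2 ratio -0.11), per the authors' deposited table. In pericytes Egfl7 averaged 190 in mutants against 226 in controls at E11.5, and 94.5 in mutants against 84.5 in controls at E13.5, per the authors' deposited tables. Its adjusted p was 0.639 at E11.5, 1.00 in E13.5 pericytes and 0.982 in endothelial cells, per the authors' deposited tables. Endothelial markers had median log2 ratios in pericytes of -0.92 at E11.5 (Egfl7 -0.25) and 0.22 at E13.5 (Egfl7 0.16), and their part in the Egfl7 ratio was not tested. Egfl7 spans chromosome 2 from 26580014 to 26593120 on the plus strand (mm10) and shares exon bases with Gm20532 and Mir126a on its own strand and with Mir126b and Agpat2 on the other, of which Agpat2 did not pass in any comparison.

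**Figure D3:**
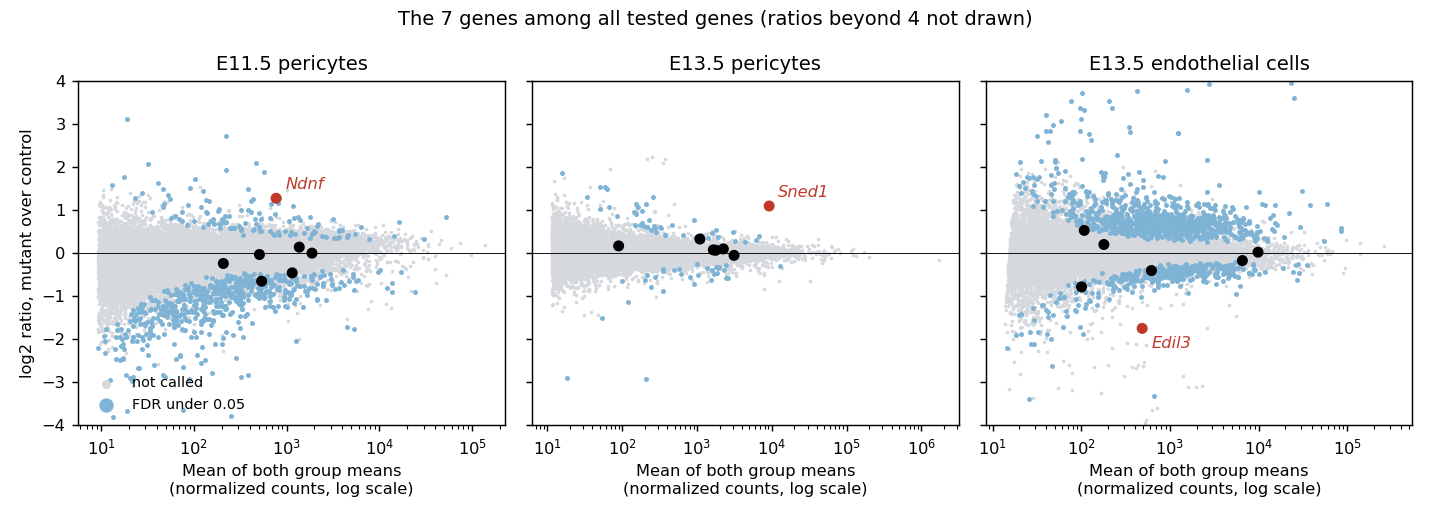
log2 ratio of mutant to control against the mean of both group means (normalized counts, log scale) for every tested gene, in grey, or blue where the adjusted p is under 0.05, with the 7 genes as large points, red where called and black where not. Sned1 lies apart from the other genes drawn at its level in E13.5 pericytes, and log2 ratios beyond 4 in size, such as that of Xist, are not drawn.

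The receptors of these proteins were followed in a list of 20 integrin subunits. At E11.5, 1 of 18 tested subunits rose and 0 fell, where 0.642% of all genes rose and 2.70% fell, with a median log2 ratio of -0.23 against -0.00 over all genes, by the authors' deposited table. The member that rose was Itgb3, the beta-3 subunit that pairs with alpha-v to bind RGD proteins, with means of 606 in mutant and 253 in control pericytes (log2 ratio 1.26, SE 0.23, adjusted p = 5.73e-05), per the authors' deposited table. Its partner Itgav had means of 1308 in mutants against 1578 in controls, with an adjusted p of 0.202, per the authors' deposited table. The Npnt receptor subunit Itga8 had a log2 ratio of 0.83 (SE 0.27) with an adjusted p of 0.0573, per the authors' deposited table.

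In E13.5 pericytes, where 0.224% of all genes rose and 0.164% fell, 1 of 19 subunits rose, Itga4, a receptor chain for fibronectin and VCAM1, with means of 2128 in mutants against 1480 in controls (log2 ratio 0.52, SE 0.10, adjusted p = 0.000372), per the authors' deposited table. The median over the list was 0.10, against 0.00 over all genes, by the authors' deposited table. Itgb3 just missed the threshold with means of 423 in mutants against 306 in controls (log2 ratio 0.46, SE 0.13, adjusted p = 0.0517), per the authors' deposited table. Itgav was level, at 2908 in mutants against 2907 in controls (the authors' deposited table).

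In endothelial cells 1 of 18 subunits rose and 1 fell, where 5.11% of all genes rose and 2.19% fell, with a median of -0.19 against -0.01 over all genes, by the authors' deposited table. Itga2b, the alpha subunit of the platelet fibrinogen receptor, averaged 3234 in mutants against 1742 in controls (log2 ratio 0.89, SE 0.30, adjusted p = 0.0399), per the authors' deposited table. Itga1, a collagen receptor chain, averaged 3191 in mutants against 4063 in controls (log2 ratio -0.35, SE 0.10, adjusted p = 0.0111), per the authors' deposited table. The platelet chemokine gene Pf4, in the myeloid list, had means of 5418 in mutants against 1821 in controls (the authors' deposited table), and blood cells' part in the Itga2b ratio was not tested. Scaling to the summed means ended the Itga2b call, with 0 subunits higher and 3 lower in endothelial cells, where 12.1% of all genes were then called. With test statistics rescaled as for Edil3, 0 subunits passed at E11.5 and in endothelial cells, where 0.0259% and 0.270% of all genes did.

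Other secreted integrin ligands also differed in single members. Of 29 tested at E11.5, 1 rose and 3 fell, where 0.642% of all genes rose and 2.70% fell, with a median log2 ratio of -0.15, by the authors' deposited table. Ccn2, a matricellular protein gene, rose with a log2 ratio of 0.74, by the authors' deposited table, and this call was lost both when scaled to the summed means (0 rose, 3 fell) and when centred on the upper-half median (0 rose, 4 fell). The matricellular genes Thbs1 and Postn and the IGF-binding protein gene Igfbp2 fell with log2 ratios of -0.87, -0.96 and -0.64, by the authors' deposited table. Of 32 tested in E13.5 pericytes 2 rose and 1 fell, where 0.224% of all genes rose and 0.164% fell, with a median of 0.08, by the authors' deposited table. Tinagl1, a matricellular protein gene, averaged 189 in mutants against 98.0 in controls (log2 ratio 0.95, adjusted p = 4.4e-06), per the authors' deposited table. Svep1, which encodes a large EGF-repeat protein that binds integrin alpha-9 beta-1, rose with a log2 ratio of 0.39, and the elastic fibre gene Emilin1 fell with one of -0.30, by the authors' deposited table. Of 32 tested in endothelial cells 1 rose and 1 fell, where 5.11% of all genes rose and 2.19% fell, with a median of -0.16, by the authors' deposited table. Spp1, the RGD protein osteopontin, averaged 2146 in mutants against 309 in controls (log2 ratio 2.80, SE 0.62, adjusted p = 0.000434), and the basement membrane gene Nid2 fell with a log2 ratio of -0.48, per the authors' deposited table. Spp1 is also made by macrophages, and all 20 myeloid markers had ratios above 1 in that table, whose part in the Spp1 ratio was not tested. Under the same rescaling 0 of these ligands passed at E11.5 and in endothelial cells, where 0.0259% and 0.270% of all genes did.

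Genes of apoptotic cell uptake, the process in which Mfge8 and Edil3 act as bridges, had called members at E11.5 and in endothelial cells. At E11.5, where 0.642% of all genes rose and 2.70% fell, 0 of 20 rose and 3 fell, the lipid exporter Abca1, the engulfment receptor gene Megf10 and the complement gene C1qc, with log2 ratios of -1.30, -0.91 and -1.06 and a list median of -0.28, by the authors' deposited table. C1qc is also among the 5 of 19 myeloid markers called lower there, whose part in this count was not tested. In E13.5 pericytes, where 0.388% of all genes passed, 0 of 20 did, with a median of 0.04, by the authors' deposited table. In endothelial cells, where 2.19% of all genes fell, 1 of 20 fell, with a list median of -0.04, by the authors' deposited table. The gene that fell was Abca1, with a log2 ratio of -0.47, by the authors' deposited table. Among EGF-repeat relatives 1 of 19 fell at E11.5, the latent TGF-beta binding protein gene Ltbp3 with -1.14, and the list median was -0.30, by the authors' deposited table. In E13.5 pericytes, where 0.224% of all genes rose and 0.164% fell, 1 of 21 rose, with a list median of -0.07, by the authors' deposited table. That gene was Svep1, already counted among the ligands above. In endothelial cells, where 7.30% of all genes passed, 0 of 18 did, with a list median of -0.14, by the authors' deposited table.

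**Figure D4:**
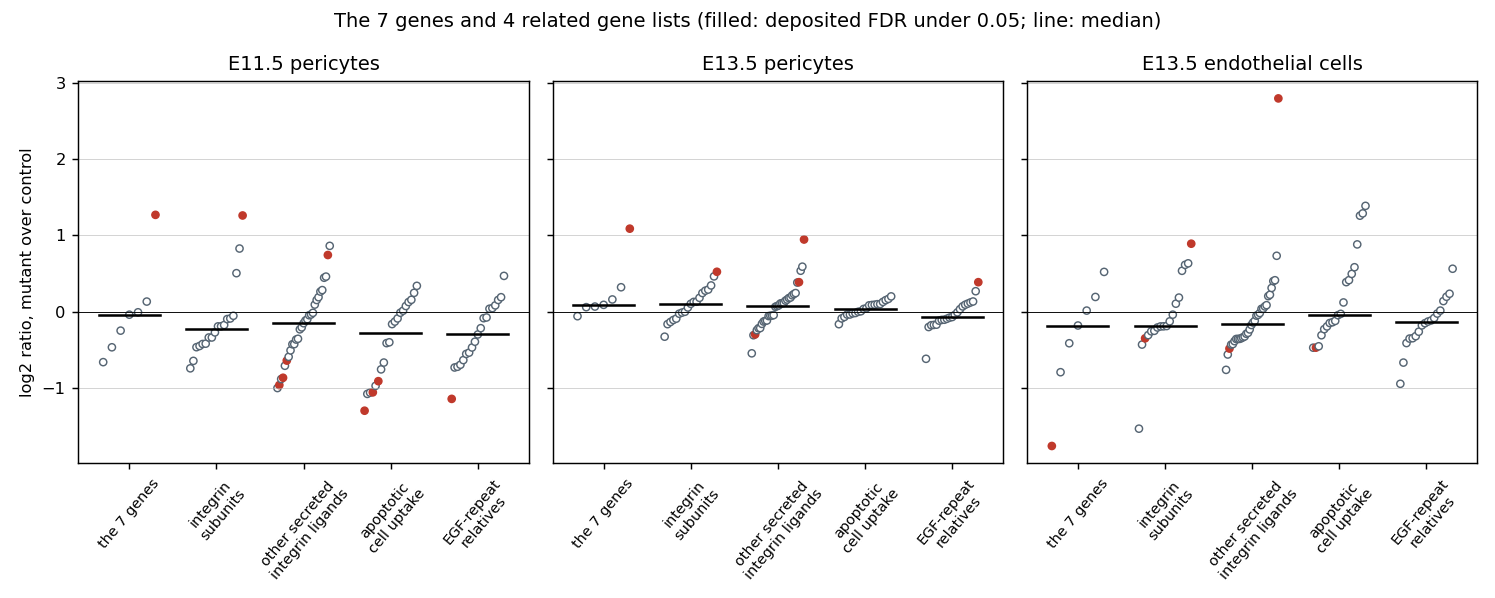
log2 ratio of mutant to control for the 7 genes and for each tested gene of 4 related lists (points, filled red where the adjusted p is under 0.05) with the list median (black line), with 1 panel per deposited table. Most genes of each list were not called, and the highest point is Spp1 in endothelial cells (2.80).

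Genes with the most similar ratios were sought over the 3 comparisons, as the smallest Euclidean distance between log2 ratios among genes above the median level in every table. For Sned1 the 4 nearest of 7181 genes were Snai2, Tgfb2, Nes and Thbd, at distances of 0.85, 0.86, 0.88 and 0.93. Of these 4, none came close to the Sned1 value in E13.5 pericytes, since their log2 ratios there were 0.29, 0.35, 0.34 and 0.28, none of them called, by the authors' deposited table. Sned1 itself lies below the median level in endothelial cells, and genes like it in that were left out. Ratios near that of Sned1 did occur in E13.5 pericytes, as in the called pericyte markers Gja4 (1.14) and Des (1.06), by the authors' deposited table. For Edil3 the 4 nearest of 7180 genes were Sox9, Gm9747, Hapln1 and Klhl13, at distances of 0.42, 0.52, 0.55 and 0.60. Their endothelial log2 ratios were -1.76, -2.12, -1.47 and -1.18, with adjusted p of 0.235, 0.135, 0.17 and 0.28, per the authors' deposited table. Likeness over 3 ratios is a description only.

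Marker lists were also read in E13.5 pericytes, where Sned1 stood apart. There 0.224% of all tested genes were called higher and 0.164% lower in mutants. Of 19 pericyte markers 3 were called higher and 1 lower, with a median of 0.16 and summed means of 30777 in mutants against 29685 in controls, by the authors' deposited table. Of 15 tested fibroblast and meningeal markers 0 were called, with a median of 0.09, by the authors' deposited table. All 16 listed there, tested or not, had summed means of 323068 in mutants against 306344 in controls, by the authors' deposited table. Of 20 myeloid markers 0 were called, with a median of 0.02, by the authors' deposited table. Of 17 endothelial markers 1 was called lower with a median of 0.22, and of 6 erythroid markers 0 were called although their median was 2.13, by the authors' deposited table. The part of these cells in the Sned1 ratio was not tested, and sex cannot be told apart from genotype there.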

How the data were processed

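Members and gene lists were chosen with earlier results of these data known. Sorted cells gave RNA for KAPA mRNA HyperPrep libraries, read on a NovaSeq6000, per the labels' protocols. The submitters' processing notes name Bowtie2, Partek and mm10, and name DESeq2 as a tool of the authors. Counting, strand and filters are not given in the sources used here. For mutant against control, the deposited tables list a ratio, a signed fold change, least-squares means, and the authors' p-value with its step-up FDR, per the file headers. Those deposited group means are treated as a signal of normalized counts with no stated scale, so library depth is unknown. What the text calls adjusted p is the deposited FDR, equal to the Benjamini-Hochberg value over genes that have one, and a gene under 0.05 is called.

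An SE is the size of the log2 ratio divided by the normal deviate matching the deposited p-value. Levels per kb use the exon union of GENCODE M21 (mm10), found for 97.5% of tested genes. Context and marker lists are given as counts and medians, without a set test. Named genes are the members, Tgfbr1, called genes of the 4 context lists, 4 nearest genes for Sned1 and Edil3, and defining markers. Added after their values were seen were Mterf4, Agpat2, Xist, Itgav, Itga8, Pf4, Erg, Gja4, Des, Cspg4, Ndufa4l2, Rgs5, Anpep, Notch3, Col1a1, Col1a2, Col3a1 and an uncalled Itgb3. The planned protein comparison was not run. Steps were tested on simulated data. Samples are not stated to come from separate litters, so a p-value covers the spread among them, which may be technical. Software was Python (3.11.15) with scipy (1.17.1), numpy (2.4.6), matplotlib (3.10.9) and pandas (2.3.3).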

Additional observations from a re-analysis of the deposited data

How the results depend on the processing

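No paired analysis was possible because the tables hold group means and no values per library, and for the same reason no replicate could be left out. With test statistics rescaled to a median size matching a standard normal, Ndnf at E11.5 stayed called (adjusted p = 0.0258). The share of all genes called there fell from 3.35% to 0.0259%. In endothelial cells that share fell from 7.30% to 0.270%, and the count of the 7 genes was 0 (Edil3, adjusted p = 0.164). In E13.5 pericytes the median size was 0.58, below that of a standard normal, so rescaling enlarged every statistic. The share called rose there from 0.388% to 0.707%, and Sned1 (adjusted p = 4.54e-29) could not lose its call. That rescaling also gave 0 integrin subunits and 0 other ligands at E11.5 and in endothelial cells, and 2 subunits in E13.5 pericytes. Scaling to the summed means, applied to the counts after seeing the data, called 2 of the 7 genes and 5 other ligands in endothelial cells. It called 12.1% of all genes there, against 7.30% before. In each pericyte table it called 2 subunits, with 4.23% of all genes at E11.5 and 0.428% in E13.5 pericytes. Egfl7 in endothelial cells was reversed by it to a log2 ratio of -0.11 (adjusted p = 0.798, uncalled either way). Centring on the upper-half median gave 2 subunits in each pericyte table, with 4.70% of all genes called at E11.5 and 0.418% in E13.5 pericytes. Both scalings ended the call of Ccn2, the 1 ligand higher at E11.5. An FDR of 0.1 called 3 subunits at E11.5 and 2 in E13.5 pericytes, where 5.90% and 0.503% of all genes passed. A minimum log2 ratio of 1 left 0 other ligands in both pericyte tables and 1 in endothelial cells. It left 0 subunits in E13.5 pericytes and in endothelial cells. Of all genes it left 1.63% at E11.5, 0.0846% in E13.5 pericytes and 1.36% in endothelial cells. In endothelial cells the summed means, 22993900 in mutants against 21082900 in controls, include erythroid markers at 1716820 in mutants against 64010 in controls. The part of this red cell RNA in the calls gained or lost there by scaling to the summed means was not tested. The cause of the other shifts, beyond the changed threshold or scale, was not tested. Without the filter on low genes, all 9 counts and all 21 ratios of the 7 genes kept their side of the threshold. Without division by length, 8 of 21 control percentiles moved by at least 10 points, among them Edil3 in E13.5 pericytes to 83.5 in place of 53.1.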
